A study of Mus musculus with 6 samples.

Results

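The COPII and COPI vesicle traffic genes encode the coats, switches and cargo receptors that carry proteins between the endoplasmic reticulum (ER) and the Golgi. They were chosen by a rule on gene symbols, with earlier results of these data known. The rule matched 49 genes with 57 probe sets, of 22180 genes and 23521 probe sets that carry a single symbol on the array. Their expression was compared between pancreatic islets of wildtype mice and of mice whose β cells lack Sel1L, an adaptor of the ER-associated degradation machinery. All mice were 5 weeks old, on the C57BL/6J background and fed regular chow. The 3 wildtype arrays came from Sel1L f/f littermates, which carry floxed alleles and no Cre, and the 3 Sel1L-deficient arrays from Sel1L f/f mice with the Ins1Cre driver, which expresses Cre from the Ins1 locus in β cells. The floxed alleles were thus common to both groups, and no group carried Cre without floxed alleles. Islets were hand-picked and cultured overnight, and they also hold other endocrine, vascular and stromal cells, where this driver is not active. The number of animals behind an array is not stated, and the p-values reflect variation among the arrays, which may be technical.

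Proteins that have folded in the ER leave it in COPII vesicles. The small GTPase SAR1 starts the coat, the SEC23-SEC24 layer binds cargo, and SEC13-SEC31 forms the outer cage. COPI vesicles, built on ARF GTPases, return escaped ER proteins and empty receptors from the Golgi. The p24 (TMED) proteins and lectins such as LMAN1 travel in both directions as cargo receptors. In β cells proinsulin takes this route, and the coats belong to the secretory genes that the unfolded protein response can induce through XBP1, ATF6 and the CREB3 family.

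Values are log2 summaries of each probe set, with array medians between 3.08 and 3.16, and the number of arrays limits the precision. Sel1l itself read 8.46, 8.56 and 8.76 on the wildtype arrays and 7.73, 7.65 and 7.68 on the deficient arrays, so it followed the labels (difference -0.90 ± 0.11 SE, limma adjusted p = 0.0312; 0.083 to 0.14 when any 1 array was left out, 0.0559 with replicate number as a block and 0.196 on the 4 arrays without Y-linked transcripts). All samples are labelled female, yet replicate 3 of each genotype carried Y-linked transcripts (Kdm5d, Eif2s3y and Uty at 5.39 to 7.31, against 1.20 to 2.07 elsewhere), and these were also the arrays with the highest acinar marker sums. Marker sums below add the linear values of a list's measured members. The islet identity was borne out by β-cell markers such as Ins2 and Iapp, whose means were 10.6 to 11.7. All 7 measured β-cell markers lay lower on every deficient array than on any wildtype array, with sums of 8209 to 8493 against 10108 to 11451. They did not fall alike. Slc30a8 and Iapp differed by -0.07 and -0.09, G6pc2 by -0.91 (limma adjusted p = 0.0449) and Mafa by -2.11 (limma adjusted p = 0.000681). All 3 measured alpha-cell markers had positive differences, each with overlap, and their sums were 9453 to 9761 in wildtype and 9982 to 10477 in deficient islets. How far fewer β cells and less RNA per β cell each lowered the β-cell values cannot be told apart in bulk islets. All 10 endothelial markers had positive differences (6 without overlap, sums 1134 to 1501 in wildtype and 1692 to 1932 in deficient islets). So did all 10 mesenchymal markers (3 without overlap, sums 387 to 543 and 607 to 690), of which Lum and Pdgfra lay below the array medians. Acinar sums overlapped, at 3101 to 7277 and 1890 to 6676. The part of these cells in the results that follow was not tested.

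None of the 49 vesicle traffic genes passed the threshold, an adjusted p under 0.05 in limma over all genes. Across the whole array 0.243% of genes passed. At an unadjusted p under 0.05 there were 6 members, or 12.2%, against 9.48% of all genes, and the smallest adjusted p was 0.35, for Tmed3 (limma). Fitted with a mean-dependent prior variance, limma also called 0 members. The differences, Sel1L-deficient minus wildtype on the log2 scale, ran from -0.33 for Sec23b to 0.40 for Copz2. Their median was -0.01, beside 0.00 over all genes, with 22 differences above 0 and 27 below. The 95% intervals give the precision. Sec31b, Tmed11 and Lman1l had means below the highest array median, where an interval says little. Of the other 46 members, 42 had the whole interval within a 1.5-fold change in either direction (91.3%, against 76.8% of all genes as bright), and all 46 within a 2-fold change. Over all 49, the 5 whose interval passed 1.5-fold were Copz2, Tmed6, Sec31b, Arf6 and Sec22c.

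**Figure D1:**
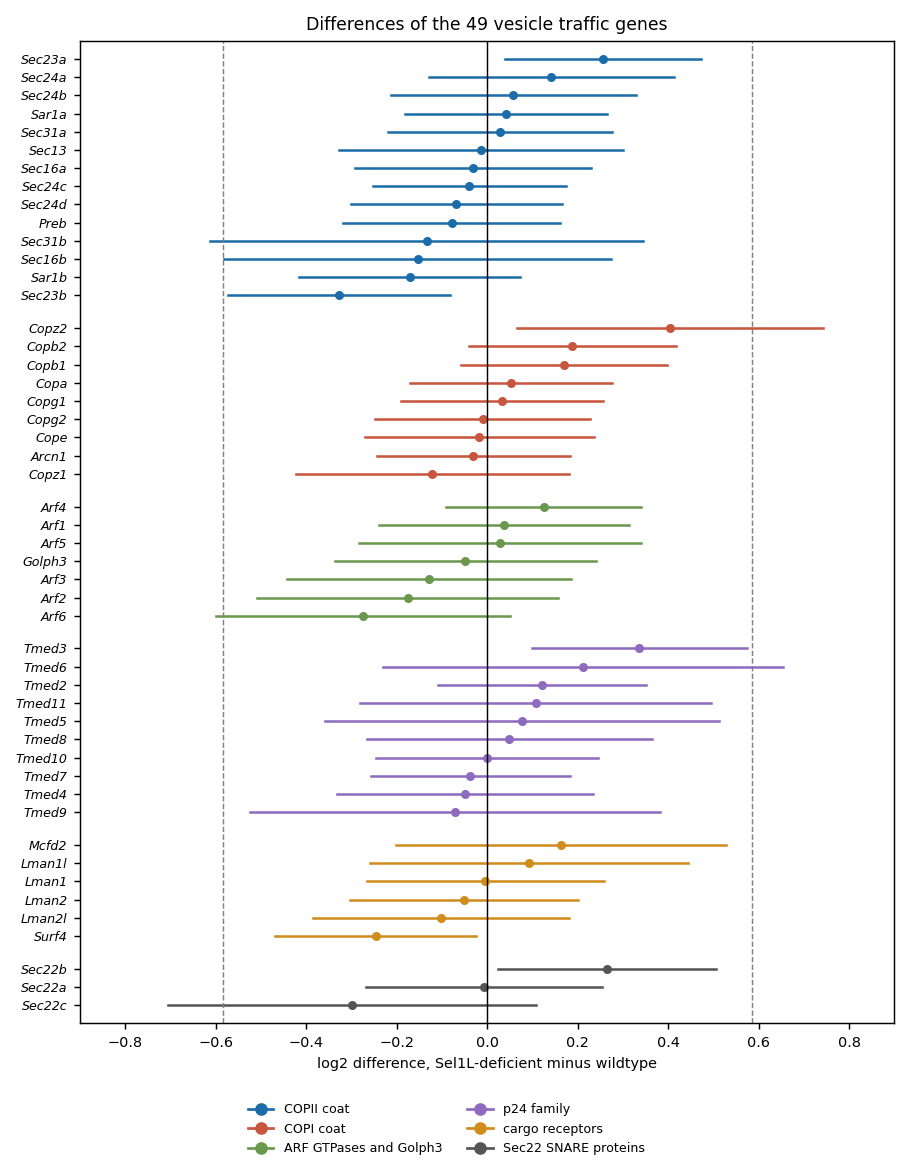
Log2 differences (x axis, Sel1L-deficient minus wildtype) of the 49 vesicle traffic genes, 1 row each, with points for the limma estimate from 3 arrays per genotype and bars for the 95% interval; dashed lines mark a 1.5-fold change. The points lie between -0.33 and 0.40 and only 5 bars cross a dashed line.

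The values of the genotypes did not overlap in 10 members. The deficient arrays lay higher in 6 of them (Sec23a, Copb1, Copb2, Arf4, Tmed3 and Sec22b), which is 12.2% of members against 7.22% of all genes. They lay lower in 4 (Sec23b, Sec24c, Sar1b and Surf4), 8.16% of members against 7.84% of all genes. These shares are near the background, and the genes are described below as measurements that did not pass the threshold. The largest distance of any array from its gene's mean was 0.47, in Tmed9. Over all members, the median deviation of an array from the gene means lay between -0.05 on wildtype replicate 2 and 0.02 on Sel1L-deficient replicate 3, so no array was shifted as a whole.

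**Figure D2:**
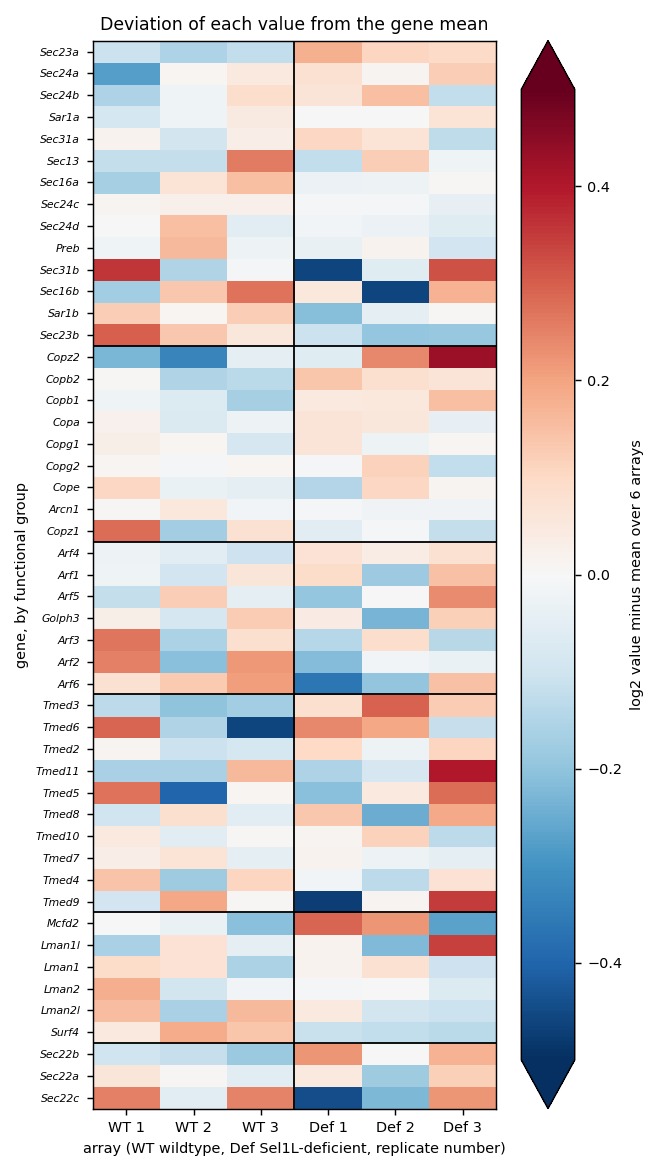
Deviation of each array's log2 value from the gene's mean over 6 arrays (colour, red above and blue below), with the 49 genes in rows by functional group and the arrays in columns. Within each group the rows are ordered by difference, so rows with like differences lie together. No functional group changes colour as a whole at the line between genotypes. Sec23a, Sec23b, Tmed3 and Surf4 are among the rows that do.

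Promoters were searched for letters that factors of the unfolded protein response are known to bind. Of the 49 members, 43 had an entry in the RefSeq promoter table (build GRCm38.p6), which spans 250 bases before to 50 bases after each annotated start. Arcn1, Arf6, Lman1, Tmed11, Tmed2 and Tmed7 had none. The letters TGACGTGG, read on both strands, are those of the unfolded protein response element bound by XBP1 and ATF6. They stood in 6 of the 43 genes (14.0%), against 0.714% of all 27025 genes in the table. The members' promoters are richer in CG, with a median of 24 CG dinucleotides per window against 7. By start, the shares were 14.3% of members' starts and 1.13% of all starts with at least 24 CG. The first share is 7 of 49 starts, in which the same Arf1 site was counted for each start whose window holds it. The 6 genes are shown because they are the members that carry these letters, given here in capitals, 5′ to 3′ on the gene's strand. Each begins 40 bases before the motif and ends at most 40 bases after it, and it stops earlier at the annotated start or, in Sec23a and Copb2, at the end of the motif.

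Sec23a, chr12:59012004-59012051, minus strand: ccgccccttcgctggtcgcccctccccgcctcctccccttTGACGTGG
Sec24d, chr3:123267430-123267495, plus strand: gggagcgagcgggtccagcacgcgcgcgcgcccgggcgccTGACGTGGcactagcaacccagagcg
Sec16b, chr1:157506712-157506795, plus strand: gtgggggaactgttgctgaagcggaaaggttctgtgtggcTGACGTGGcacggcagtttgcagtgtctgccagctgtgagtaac
Copb1, chr7:114254681-114254748, minus strand: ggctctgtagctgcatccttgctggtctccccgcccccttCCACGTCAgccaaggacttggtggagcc
Copb2, chr9:98563684-98563731, plus strand: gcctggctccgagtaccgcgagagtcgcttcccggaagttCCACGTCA
Arf1, chr11:59228199-59228286, minus strand: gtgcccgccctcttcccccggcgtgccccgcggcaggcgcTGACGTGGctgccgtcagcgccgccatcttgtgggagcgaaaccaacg

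In Copb1 and Copb2 the match reads as the reverse complement, CCACGTCA, and in Sec23a it begins 6 bases after the annotated start. In Arf1 it begins 84 bases before one annotated start and 21 bases after another. Among these 6 genes the deficient arrays lay above all wildtype arrays in 3 (Sec23a, Copb1 and Copb2), against 3 of the 37 members whose promoter lacks the letters (8.11%) and 7.22% of all genes, while Sec16b, Sec24d and Arf1 overlapped with differences of -0.15, -0.07 and 0.04. The deficient arrays lay below all wildtype arrays in 0 of the 6 and 4 of the 37 (10.8%), against 7.84% of all genes. The median difference was 0.10 for the 6 and -0.01 for the 37. The motifs were chosen with earlier results of these data known, so these contrasts are a description. None of the 6 passed the threshold (smallest limma adjusted p = 0.441), and a share among so few genes is imprecise. The shorter core ACGTG, which TGACGTGG contains, stood in 27 of 43 members (62.8%) and in 21.8% of all genes. By start, the shares were 59.2% of members' starts and 29.3% of all starts with at least 24 CG. The core came with a median difference of 0.03 in those members and -0.06 in the 16 without it. The cyclic AMP response element TGACGTCA stood in Cope and Golph3 (4.65% of members, 2.03% of all genes, and 3.84% of all starts with at least 24 CG against 4.08% of members' starts), and the ER stress element ERSE in 0 of 43 members (0.137% of all genes). These are matches of letters in a window and describe no binding.

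In the COPII coat, 0 of 14 genes passed the threshold and the median difference was -0.04. Sec23a encodes a subunit of the inner coat that makes SAR1 hydrolyse GTP. It read 7.60, 7.55 and 7.58 in wildtype and 7.89, 7.81 and 7.80 in Sel1L-deficient islets. The deficient arrays were all higher, by 0.26 ± 0.09 on the log2 scale (SE, n = 3 each; limma adjusted p = 0.441). Sec23b encodes the other form of this subunit. It went the other way, with 7.91, 7.75 and 7.67 in wildtype and 7.51, 7.42 and 7.42 in deficient islets, a difference of -0.33 ± 0.11 (SE; limma adjusted p = 0.379). Every deficient array was below every wildtype array.

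The SAR1 and SEC24 genes showed smaller differences. Sar1b, which encodes a form of the GTPase that is needed for chylomicron export in the gut, read 8.97, 8.86 and 8.97 in wildtype and 8.63, 8.80 and 8.85 in deficient islets (difference -0.17 ± 0.11, limma adjusted p = 0.698). The gap between the groups was narrow, with the highest deficient array just under the lowest wildtype array. Sar1a differed by 0.04 with an interval of -0.18 to 0.27. Of the SEC24 cargo adaptors, Sec24c read 8.61, 8.62 and 8.62 in wildtype and 8.59, 8.59 and 8.56 in deficient islets. It did not overlap, yet the difference was only -0.04 ± 0.09. Sec24a and Sec24b differed by 0.14 and 0.06, and Sec24d by -0.07, each with overlap between the genotypes. Sec24a was lowest on wildtype replicate 1, without which its difference was 0.04.

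The outer cage and the proteins that start the coat at ER exit sites differed little. The cage genes Sec13 and Sec31a differed by -0.01 and 0.03. The scaffold gene Sec16a differed by -0.03, and Preb, which encodes the exchange factor that loads SAR1 with GTP, by -0.08. Sec16b, the second scaffold gene, varied more between arrays, with an SD of 0.23 in wildtype and 0.34 in deficient islets, and its difference of -0.15 had an interval of -0.58 to 0.27. Without Sel1L-deficient replicate 2, its lowest array at 5.86, the difference was 0.04. Sec31b lay at 1.92 to 2.73 on every array, below the array medians, and was not separated from background.

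Among COPI coat genes 0 of 9 passed, with a median difference of 0.03. The coatomer is assembled from several subunits, of which γ and ζ exist in paired forms. Copb1 and Copb2 encode the β and β′ subunits. Copb1 read 9.73, 9.68 and 9.59 in wildtype and 9.80, 9.80 and 9.90 in deficient islets (difference 0.17 ± 0.10, limma adjusted p = 0.672). Copb2 read 9.80, 9.64 and 9.65 in wildtype and 9.93, 9.87 and 9.86 in deficient islets (0.19 ± 0.10, limma adjusted p = 0.626). Both were higher on each deficient array than on any wildtype array, by a margin smaller than the range among wildtype arrays. The large α subunit gene Copa differed by 0.05, Copg1 and Copg2 for the γ subunits by 0.03 and -0.01, Cope for ε by -0.02 and Arcn1 for δ by -0.03. Arcn1 was among the most even members, at 8.89, 8.93 and 8.87 in wildtype and 8.87, 8.86 and 8.87 in deficient islets. Its interval ran from -0.24 to 0.18.

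Copz2, which encodes the second form of the ζ subunit, had the largest difference of all members. It read 7.77, 7.67 and 7.95 in wildtype and 7.94, 8.24 and 8.43 in deficient islets, a difference of 0.40 ± 0.15 (SE; limma adjusted p = 0.431; interval 0.07 to 0.74). The groups overlapped between wildtype replicate 3 and Sel1L-deficient replicate 1. Its difference was 0.29 without Sel1L-deficient replicate 3 and 0.54 without Sel1L-deficient replicate 1. Mesenchymal marker sums were also higher in the deficient islets, at 543, 528 and 387 in wildtype and 690, 659 and 607 in deficient islets. These sums were lowest on replicate 3 of each genotype, where Copz2 was highest. Single markers differed in this. Among the mesenchymal markers only the pericyte gene Rgs5 was highest on replicate 3 of both genotypes. It read 6.16, 5.81 and 6.88 in wildtype and 6.85, 6.73 and 7.41 in deficient islets. Col1a1, Col1a2, Pdgfrb and Acta2 were lowest there in both genotypes. Col1a1 read 6.53, 6.56 and 4.66 in wildtype and 6.62, 6.62 and 5.48 in deficient islets. Pdgfrb read 6.57, 6.73 and 6.14 in wildtype and 7.01, 6.70 and 6.44 in deficient islets. The remaining markers were neither highest nor lowest there in both genotypes. The part of mesenchymal cells in the Copz2 values was not tested. Copz1, the first form, read 8.94, 8.49 and 8.74 in wildtype and 8.61, 8.65 and 8.54 in deficient islets and overlapped (-0.12 ± 0.13).

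The ARF GTPases recruit COPI and other coats to membranes, and Golph3 encodes a Golgi protein that links resident enzymes to COPI. None of these 7 genes passed, and their median difference was -0.05. Arf4, of the class that acts between the ER and Golgi, read 8.98, 8.95 and 8.91 in wildtype and 9.08, 9.05 and 9.08 in deficient islets (0.13 ± 0.09, limma adjusted p = 0.748). It was higher on each deficient array by a small margin. Arf6, which acts at the plasma membrane, read 5.91, 5.97 and 6.04 in wildtype and 5.47, 5.64 and 5.98 in deficient islets. Sel1L-deficient replicate 3 fell inside the wildtype range while the others lay below it (-0.27 ± 0.14, limma adjusted p = 0.609). Without that array the difference was -0.42. Arf2 read 5.08, 4.62 and 5.05 in wildtype and 4.61, 4.81 and 4.80 in deficient islets and overlapped (-0.18 ± 0.15). Arf1, Arf3, Arf5 and Golph3 differed by 0.04, -0.13, 0.03 and -0.05.

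In the p24 family 0 of 10 genes passed, and the median difference was 0.06. Tmed3 encodes a γ-class p24 protein, a partner in the p24 complexes that move cargo out of the ER. Its wildtype values were 8.22, 8.15 and 8.17 and its deficient values 8.43, 8.65 and 8.48. All deficient arrays were higher, by 0.34 ± 0.10 (SE; interval 0.10 to 0.57; limma adjusted p = 0.35), or 1.26-fold. The difference lay between 0.27 and 0.38 when any array was left out. On their brightest probe sets, other p24 genes overlapped between genotypes. Tmed2, of the β class, differed by 0.12 with overlap, Tmed10, of the δ class, by 0.00 with an interval of -0.24 to 0.24, and the α-class genes Tmed4 and Tmed9 by -0.05 and -0.07. Tmed7, another γ-class gene, read 9.45, 9.49 and 9.38 in wildtype and 9.44, 9.40 and 9.37 in deficient islets.

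The other Tmed genes varied in brightness and in spread between arrays. Tmed6 read 3.76, 3.32 and 3.01 in wildtype and 3.71, 3.66 and 3.36 in deficient islets, close to the array medians, and overlapped (0.21 ± 0.19). Tmed5 and Tmed8 differed by 0.08 and 0.05. Tmed9 had the widest spread of the family in deficient islets, with 6.17, 6.65 and 6.99 there and 6.55, 6.83 and 6.65 in wildtype. Tmed11 lay at 1.60 to 2.17, below the array medians. It was not separated from background.

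Of the 6 cargo receptor genes 0 passed, with a median of -0.03. SURF4 is a membrane receptor that exports soluble proteins from the ER, and Surf4 read 8.94, 9.07 and 9.03 in wildtype and 8.78, 8.77 and 8.75 in Sel1L-deficient islets. The deficient arrays lay close together (SD 0.01) and below every wildtype array (-0.25 ± 0.10 SE; interval -0.47 to -0.03; limma adjusted p = 0.466). The lectin gene Lman1 and Mcfd2, whose product forms a receptor with LMAN1 that carries clotting factors, differed by 0.00 and 0.16. The lectin genes Lman2 and Lman2l differed by -0.05 and -0.10. Lman1l lay at 2.15 to 2.71, below the array medians.

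Sec22 proteins are SNAREs, or SNARE-like, of transport between the ER and Golgi. SEC22B is the SNARE of this family that fuses vesicles at either end. Sec22b read 7.33, 7.32 and 7.25 in wildtype and 7.65, 7.43 and 7.60 in deficient islets, and it was higher on all deficient arrays (0.26 ± 0.11 SE; limma adjusted p = 0.475). Sec22c read 5.03, 4.73 and 5.03 in wildtype and 4.34, 4.55 and 5.00 in deficient islets, with Sel1L-deficient replicate 3 among the wildtype values (-0.30 ± 0.18). Sec22a differed by -0.01. None of these 3 genes passed.

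**Figure D3:**
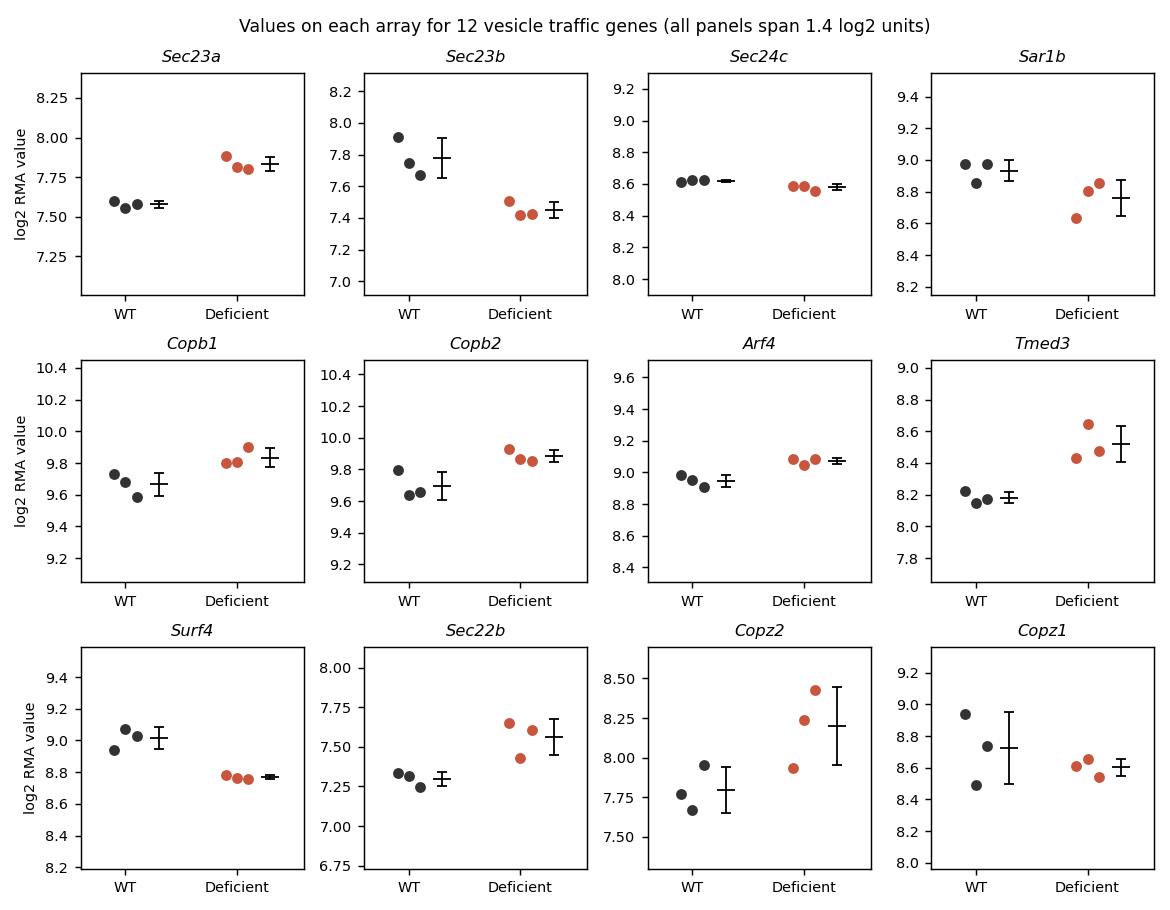
Log2 value (y axis, each panel spanning 1.4 units) on the 3 wildtype (dark) and 3 Sel1L-deficient (red) arrays of the 10 genes without overlap and of Copz2 and Copz1; bars give mean and SD. Sec23a and Tmed3 are higher and Sec23b and Surf4 lower on every deficient array, whereas Copz2 and Copz1 overlap.

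Several coat subunits exist as a pair of paralogs that can stand in for each other. The log2 ratio within each array was compared for 12 pairs of coat, ARF and lectin genes, chosen after the values had been seen. A ratio between different probe sets has no absolute meaning, and its change between genotypes is what is given. Since the single genes were already known, the changes are a description. An exact permutation test with 3 arrays per genotype cannot give a p under 0.1, so it cannot decide and is not used here. The ratio of Sec23a to Sec23b was -0.31, -0.20 and -0.09 in wildtype and 0.38, 0.39 and 0.38 in deficient islets. It changed by 0.58, the largest change of the 12 pairs (SD 0.12 in wildtype and 0.01 in deficient islets). The ratio of Copz1 to Copz2 was 1.17, 0.82 and 0.78 in wildtype and 0.67, 0.41 and 0.12 in deficient islets, a change of -0.52. The groups did not overlap. The ratio of Sar1a to Sar1b was 0.07, 0.25 and 0.20 in wildtype and 0.49, 0.32 and 0.34 in deficient islets and also did not overlap (change 0.21). In the other 9 pairs, among them Sec24a with Sec24b, Sec24c with Sec24d, Sec16a with Sec16b and Copg1 with Copg2, the genotypes overlapped and the changes ran from -0.10 to 0.17. In the pairs Sec31a with Sec31b and Lman1 with Lman1l the second gene lay below the array medians, so their ratios say little. Whether probes of a paralog also bind its partner was not analysed here.

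**Figure D4:**
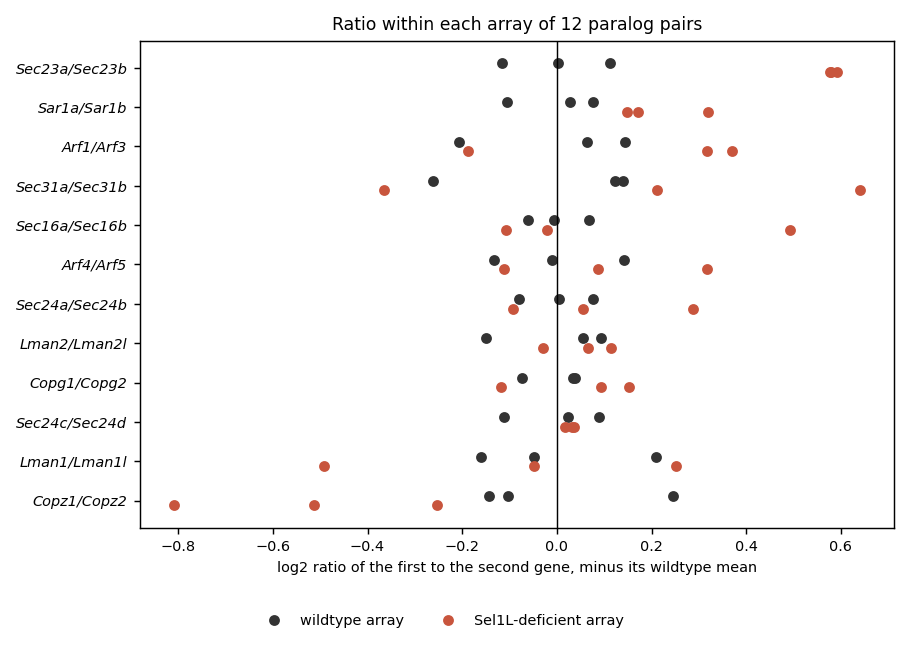
Log2 ratio of the named pair within each array, minus its wildtype mean (x axis), for 12 paralog pairs (rows), with 3 wildtype (dark) and 3 Sel1L-deficient (red) arrays each. The genotypes are apart for Sec23a/Sec23b (0.58), Copz1/Copz2 (-0.52) and Sar1a/Sar1b (0.21) and overlap in the other 9 rows. In the rows Sec31a/Sec31b and Lman1/Lman1l the second gene lay below the array medians.

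Of the members, 7 had more than 1 probe set, and the values above are those of the brightest. The second probe set of Tmed10 read 6.06, 5.97 and 5.80 in wildtype and 6.45, 6.98 and 6.14 in deficient islets, which is 0.58 higher (adjusted p = 0.408 in limma, fitted on probe sets), while the brightest set differed by 0.00. The genotypes did not overlap on the second set, so the sets of this gene disagreed. The second set of Arf6 differed by 0.22 against -0.27 on the brighter, and that of Arf4 by 0.37 against 0.13, but the genotype means of both second sets lay below the array medians. For Arf1, Tmed2 and Copz1 the second set differed by 0.03, 0.11 and -0.03, and for Tmed9 by 0.08 at a level below the array medians. Preb also shared a probe set with the symbol Abhd1, which was not used.

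A wider list of ER-Golgi transport genes and of transcription factor genes of the CREB3 family and unfolded protein response gave 79 measured of 83 listed, of which 1 passed the threshold and rose, and 0 fell. Its median difference was -0.01. Kdelr3, a receptor that COPI vesicles use to return ER proteins, read 5.52, 5.26 and 5.42 in wildtype and 6.50, 6.49 and 6.56 in deficient islets (1.12 ± 0.11, limma adjusted p = 0.013). It still passed without wildtype replicate 1 or Sel1L-deficient replicate 3, and leaving out any of the other 4 arrays gave adjusted p from 0.0543 to 0.0896. Its relatives Kdelr1 and Kdelr2 differed by 0.15 and 0.17. The groups of Kdelr2 did not overlap.

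The next largest positive difference on the wider list was in Tango2, which read 4.67, 4.09 and 4.82 in wildtype and 5.00, 5.14 and 5.03 in deficient islets (0.53 ± 0.18, limma adjusted p = 0.406). Use1, a SNARE gene of Golgi-to-ER transport, read 7.77, 7.41 and 7.58 in wildtype and 7.80, 8.13 and 8.03 in deficient islets (0.40 ± 0.14, limma adjusted p = 0.4). The most negative was Atf6b, a relative of the stress sensor gene Atf6, with 6.60, 6.83 and 6.59 in wildtype and 6.11, 6.22 and 6.07 in deficient islets (-0.54 ± 0.11, limma adjusted p = 0.174). None of these passed the threshold. The Golgi GTPase gene Rab6a read 7.44, 7.22 and 7.32 in wildtype and 6.85, 7.22 and 6.86 in deficient islets (-0.35 ± 0.13, limma adjusted p = 0.446). Rab1b, for a GTPase of ER-to-Golgi transport, read 9.11, 8.62 and 8.77 in wildtype and 8.48, 8.60 and 8.42 in deficient islets (-0.33 ± 0.14, limma adjusted p = 0.516). In all 5 of these genes the genotypes did not overlap, as in 20 of the 79 genes (9 higher, 11.4% against 7.22% of all genes, and 11 lower, 13.9% against 7.84%). By function, the medians were 0.15 for the 7 retrieval receptors, -0.08 for 13 exit site organisers and other cargo receptors, -0.06 for 12 SNARE genes and their binding partners, -0.02 for 25 tethers, RABs and Golgi matrix genes, 0.02 for 7 ARF regulators, 0.08 for 7 YIP genes and 0.04 for the 8 transcription factor genes.

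Transcription factor genes that can drive the coat genes were measured in the same fit. Xbp1 read 8.55, 8.63 and 8.66 in wildtype and 8.55, 8.46 and 8.50 in deficient islets (-0.11 ± 0.10, limma adjusted p = 0.798). The deficient arrays lay below the wildtype arrays, but the nearest pair was 8.55 in both. Splicing of Xbp1 RNA, which activates its product, is not read by these values. Atf6 read 8.79, 8.67 and 8.89 in wildtype and 8.86, 8.65 and 8.60 in deficient islets (-0.08 ± 0.12). Creb3l1 read 6.88, 7.12 and 7.23 in wildtype and 7.40, 7.42 and 7.12 in deficient islets (0.24 ± 0.13; interval -0.07 to 0.54; limma adjusted p = 0.658). Creb3l2 read 8.80, 8.72 and 8.84 in wildtype and 8.98, 9.02 and 8.66 in deficient islets (0.10 ± 0.12). The genotypes overlapped in Atf6, Creb3l1 and Creb3l2.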

How the data were processed

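Total RNA of islets was hybridised to Affymetrix arrays, with 3 arrays per genotype. The deposited values were summarised with RMA, per the submitters' processing notes; RMA corrects background, normalizes between arrays and can pull large ratios toward 1. Its version and filters are not given in the sources used here, and neither is the base of the logarithm; the deposited values were taken as log2 from their range of 0.526 to 13.0. No detection call was used, so values below the array medians were not separated from background. Of 41345 probe sets, 23521 had 1 gene symbol in the platform annotation, 1814 had several and 16010 were unnamed. All member symbols matched RefSeq by Entrez identifier.

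For each of 22180 genes the brightest probe set on average over the 6 arrays was used. Differences were fitted by lmFit and eBayes (limma 3.58.1, R 4.3.3; two-sided) and adjusted by Benjamini-Hochberg over all genes; the script was tested on simulated data. Errors are standard errors from limma, and SDs are over 3 arrays.

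The members, lists, motifs and alternatives were chosen with earlier results of these data known. All array values were given for members past the threshold, the 12 largest differences, members without overlap and the member of each functional group with the smallest standard error; of the wider list, for called genes and the 3 largest differences on each side; and for the regulators Xbp1, Atf6, Creb3l1 and Creb3l2. Values of Copz1, Tmed9, Sec31b, Tmed11, Lman1l, Sec16b and the other probe sets were added after being seen. Protein sequences were not analysed here. Alternatives left out each array, used replicate number or Y-linked transcripts as a term, dropped the arrays with Y-linked transcripts, and changed probe sets, the filter on dim genes, normalization or the prior variance.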

Additional observations from a re-analysis of the deposited data

How the results depend on the processing

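The count of vesicle traffic genes past the threshold was 0 in all 15 alternative fits, with smallest adjusted p from 0.139 (Tmed3, mean-dependent prior) to 0.55 (Tmed3, without wildtype replicate 1). Their median difference stayed between -0.03 and 0.01. Of the 49 members, 17 had a difference larger than its standard error, and none of these changed sign; of the other 32, 22 changed sign in at least 1 fit. The wider list had 1 gene past the threshold, and leaving out each array gave 0 to 1. It had 0 on the 4 arrays without Y-linked transcripts, where Kdelr3 differed by 1.11 (limma adjusted p = 0.152). Replicate numbers were tried as a replicate block, which called 0 members and 36 genes in all, against 54; Sel1l then had an adjusted p of 0.0559 (limma). Deviations of same-numbered arrays correlated at 0.105, 0.0720 and 0.210 across genes. Each array correlated best with its own number, a hint from the data, but the numbers were not taken to pair the samples. The largest correlation, 0.210, joined the replicate 3 arrays, which share Y-linked transcripts and the highest acinar marker sums. Deviations sum to 0 within a genotype, so the 3 correlations are not independent. All genes called numbered 98 with the mean-dependent prior, 4 to 29 when an array was left out and 1 without the arrays with Y-linked transcripts. The number of arrays limits the precision, and 3 of the 49 members lay below the array medians on average, where a change would be hard to see.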
